A study of Drosophila melanogaster with 33 samples.

Results

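The 6 genes ems, btd, croc, fkh, byn and cnc are transcription factors that lay out the head and the gut of the fruit fly embryo, and they were followed through the first nuclear cycles and the blastoderm. They were chosen by name and are 6 of the 16407 genes in the deposited tables. All 6 were tested in both sets of libraries. Embryos of the wild-type strain Oregon R had been injected with 5-ethynyl uridine (5-EU), which is taken up into newly made RNA and carries a handle for biotin. Each preparation of staged embryos gave an eluate (RNA held on streptavidin beads, and so labelled RNA with a background), a flow-through (RNA that did not bind) and an input (total RNA). The eluates came from embryos at nuclear cycles (NC) 7-9 (1 preparation), NC 9-10 (2), syncytial blastoderm (2) and cellular blastoderm (2), and the flow-throughs and inputs were from the same preparations, which makes 21 poly(A) libraries. A further 12 rRNA-depleted libraries had 1 preparation at each of the 4 stages. The dose was 250 mM 5-EU in every group, except that the second of the poly(A) preparations had 50 mM at both blastoderm stages.

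The head of the fly embryo is laid out by head gap genes, which are switched on in overlapping stripes at the front of the blastoderm under the maternal Bicoid gradient and the terminal Torso signal. The gene ems (empty spiracles) encodes a homeodomain protein and btd (buttonhead) a zinc finger protein of the Sp family, and both are needed for several adjoining head segments. The gene croc (crocodile) encodes a forkhead domain protein of the foremost head. At the ends of the embryo fkh (fork head), the founding member of the forkhead family and a relative of vertebrate FoxA, is needed for foregut and hindgut, and byn (brachyenteron), a T-box gene related to Brachyury, for the hindgut. The gene cnc (cap-n-collar) encodes bZIP proteins related to vertebrate Nrf2. A form shorter than the long form CncC acts in the labral and mandibular head. CncC drives genes against oxidative stress together with maf-S and under the repressor Keap1.

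The genes differ in structure in the BDGP6.54 annotation, which uses the dm6 coordinates. The gene ems (FBgn0000576) lies on chromosome arm 3R from 13901853 to 13904620 on the plus strand, with 1 intron of 290 bp. The gene btd (FBgn0000233) lies on the X chromosome from 9694186 to 9697558 on the plus strand, with 1 intron of 439 bp. Both forkhead genes, croc (FBgn0014143, 3L, 21474133 to 21476479) and fkh (FBgn0000659, 3R, 28580976 to 28585264), are on the minus strand and have no intron. The gene byn (FBgn0011723, 3L, 11927693 to 11935919, plus strand) has 6 introns, the longest of 3977 bp, and the antisense gene CG44837 lies inside it without sharing an exon. The gene cnc (FBgn0262975, 3R, 23185580 to 23226711, minus strand) spans 41132 bp, has 16 annotated transcripts and shares exonic positions with Irk1 and CG46310 on the other strand. The deposited value of cnc is 1 number for all its transcripts, so its forms were not told apart. The strand setting of the read counting is not given in the sources used here.

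Levels are given in parts per 1000000 (ppm). They are the deposited RPKM values less the 1 that had been added to them, scaled per library, and are per length, so that genes can be compared. Estimated reads ran from 1.93 M to 36.9 M per library (M, 1000000 reads). Summed over 6 early zygotic markers, the level in poly(A) eluates was 22.2 ppm at NC 7-9, 97.7 and 664 at NC 9-10, 7664 to 18495 at syncytial and 12117 to 14127 at cellular blastoderm. The blastoderm eluates were above the earlier ones and overlapped with each other. The 6 maternal markers summed to 2834 to 3974 ppm in poly(A) libraries up to syncytial blastoderm and 1299 to 1547 at cellular blastoderm. The follicle cell markers were at 0 or summed to at most 0.591 ppm in every poly(A) library. The labels do not say that preparations were separate collections. P-values therefore measure only the spread between preparations, which may be technical and at the blastoderm stages includes the dose. In the poly(A) fit this spread was pooled over stages and fractions, including NC 9-10, where all the genes but cnc were near 0. The fractions of a preparation entered as if independent, so the p-values do not measure the spread of the blastoderm preparations alone.

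**Figure D1:**
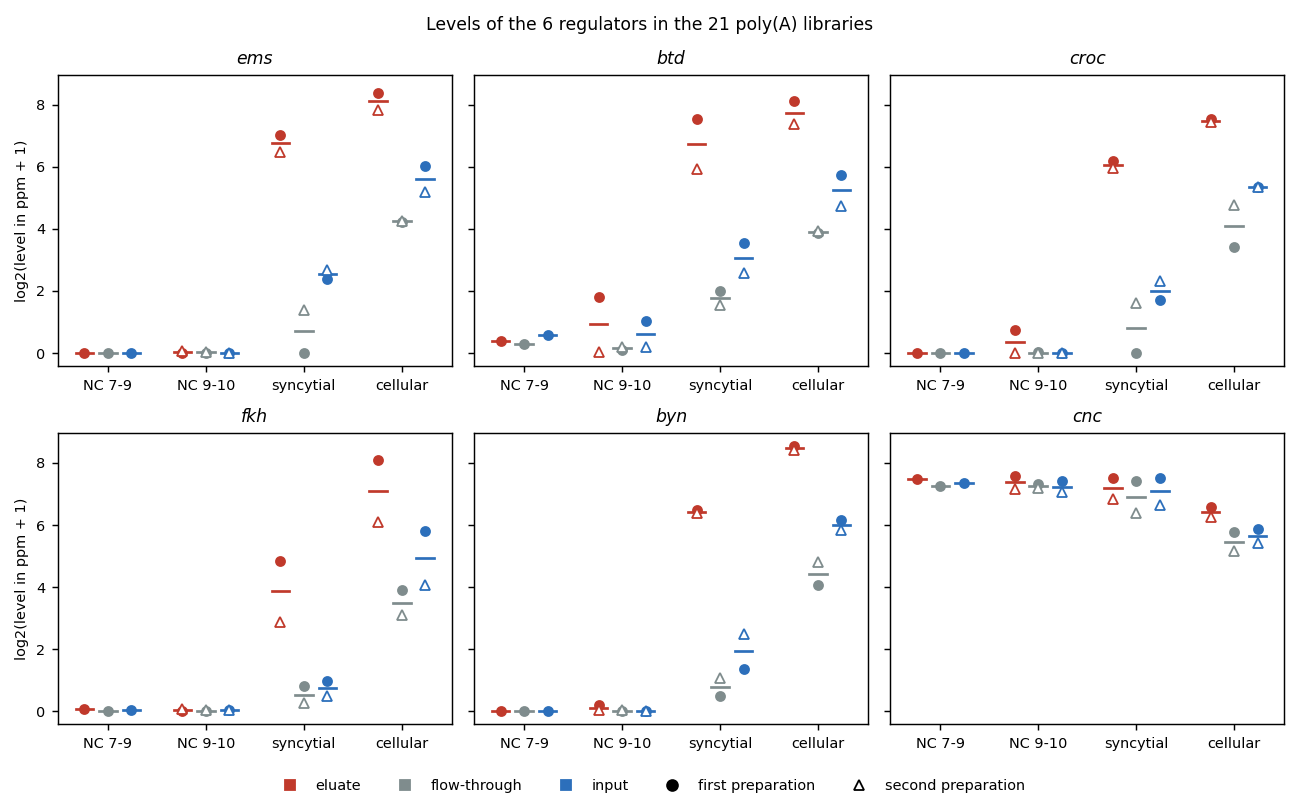
Levels of the 6 genes in each poly(A) library, as log2 of the level in ppm plus 1 (y axis), by stage (x axis), for eluate, flow-through and input from left to right. Filled circles are first and open triangles second preparations, and bars are means on this scale. Of the 6 genes, ems, btd, croc, fkh and byn are near 0 up to NC 9-10 and highest in eluates of cellular blastoderm, while cnc is above 100 ppm at NC 7-9 and at its lowest at cellular blastoderm.

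Before the blastoderm stages, cnc transcript was abundant in total RNA, and the other genes were at or near 0. At NC 7-9 the level of cnc was 176 ppm in the eluate, 152 in the flow-through and 161 in the input of the poly(A) set. No read was assigned to ems, croc or byn in any of those 3 libraries, and fkh had an estimated 1, 0 and 1 reads. The head gap gene btd had 5 estimated reads in the eluate, 9 in the flow-through and 10 in the input, or 0.323, 0.227 and 0.490 ppm. So btd was at a trace level in all 3 fractions alike. With 1 library per fraction there was no test at this stage.

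At NC 9-10 the first eluate held btd at 2.52 ppm (19 estimated reads) and the second at 0.0246 ppm (1 read), against inputs of 1.07 and 0.149 ppm. Eluates and inputs of btd overlapped. The gene croc had 4 and 0 reads in the eluates (0.664 and 0 ppm) and none in the inputs. For ems (0 and 2 reads) and byn (1 and 1) the eluates were near 0 and the inputs without a read, and fkh had 0 and 3 reads in the eluates against 1 and 1 in the inputs. The level of cnc was 192 and 141 ppm in the eluates, against 169 and 133 ppm in the inputs, which overlapped. In limma's test none of the 6 genes differed between eluate and input (adjusted p = 1 for each), and their log2 differences lay between −0.00 for fkh and 0.37 for croc. The share called over all 8744 genes tested was 0.0%, with 398 genes at an unadjusted p below 0.05. Depth limits this stage, since 3 reads set a floor and most of these values lie at or under it.

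At syncytial blastoderm the labelled RNA held all the head and gut regulators other than cnc well above total RNA. The gene ems had 129 ppm in the first and 89.1 ppm in the second eluate, against 4.26 and 5.44 ppm in the inputs. For btd the eluates had 184 and 60.5 ppm and the inputs 10.8 and 4.94 ppm. The foremost head gene croc had 71.5 and 61.6 ppm in the eluates, against 2.28 and 3.99 ppm in the inputs. In each of these 3 head genes both eluates were above both inputs. The share of all genes tested without overlap was not counted, here or in the comparisons below. The log2 difference was 4.22 ± 0.43 for ems (SE, n = 2 against 2, limma adjusted p = 7.85e-05), 3.67 ± 0.66 for btd (0.0025) and 4.06 ± 0.52 for croc (0.000264).

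Of the gut genes, byn was at 88.3 and 82.7 ppm in the syncytial eluates, against 1.59 and 4.58 ppm in the inputs. The gene fkh was lower, with 27.9 and 6.36 ppm in the eluates against 0.985 and 0.390 ppm in the inputs. Eluates and inputs did not overlap in either gene. The log2 difference was 4.51 ± 0.38 for byn (limma adjusted p = 5.52e-05) and 3.13 ± 0.75 for fkh (0.0149). Both fkh inputs lie under the 1 ppm added, which lowers its difference more than that of byn. The call of fkh was lost without the first eluate (2.15, limma adjusted p = 0.127), without the first input (3.39, 0.0567) and without the second input (2.88, 0.114). The head and stress gene cnc had 183 and 115 ppm in the eluates, against 181 and 99.9 ppm in the inputs, so that the fractions overlapped. Its log2 difference was 0.11 (95% interval −0.75 to 0.96, limma adjusted p = 0.973).

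In all, 5 of the 6 genes were called higher at syncytial blastoderm and none lower, where 11.2% of the 8744 genes tested were called higher. The median of the 6 was 3.87 and that of all genes tested 0.08. On the values as deposited, which are not scaled between libraries, the median gene lay at log2 −3.73 and btd at −0.06, while ems, croc, fkh and byn stayed above 0, at 0.49 to 1.06. None of them was then called higher. When only the 4 libraries compared entered the fit, no gene was called either, and the limma adjusted p of the 5 genes ran from 0.0554 to 0.235.

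At cellular blastoderm the same 5 genes were again called higher in labelled RNA, with smaller ratios and higher levels. The level of ems was 331 and 229 ppm in the eluates, against 63.8 and 35.6 ppm in the inputs. That of btd was 276 and 164 ppm in the eluates, against 52.9 and 25.7 ppm in the inputs. For croc the eluates had 186 and 173 ppm and the inputs 39.8 and 39.7 ppm. The fractions of the head genes did not overlap, and their log2 differences were 2.50 ± 0.43 for ems (limma adjusted p = 0.000638), 2.50 ± 0.66 for btd (0.00732) and 2.14 ± 0.52 for croc (0.00471).

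The hindgut gene byn had the highest level of the 6 in cellular blastoderm eluates, 374 and 343 ppm, against 69.9 and 56.5 ppm in the inputs. The gene fkh had 271 and 67.2 ppm in the eluates and 55.0 and 15.9 ppm in the inputs. Both eluates were above both inputs in both gut genes. The log2 difference was 2.49 ± 0.38 for byn (limma adjusted p = 0.000328) and 2.14 ± 0.75 for fkh (0.0279). Without the first eluate or the second input, fkh (1.15 and 1.28, limma adjusted p = 0.273 and 0.243) and btd (2.12 and 1.99, 0.0635 and 0.0702) were no longer called. The level of cnc was 94.5 and 75.3 ppm in the eluates, against 57.5 and 42.3 ppm in the inputs, so both eluates stood above both inputs at this stage. Its log2 difference of 0.76 ± 0.39 did not pass (limma adjusted p = 0.118), and passed with the preparation as a block (0.000622). With that block 4128 of the 8744 genes tested were called higher and 2131 lower, and the median gene lay at 0.57.

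So 5 of the 6 genes were called higher at cellular blastoderm, where 39.0% of all genes tested were called higher and 17.3% lower. The median of the 6 genes was 2.32 and that of all genes tested 0.57. Relative to the inputs as deposited the signs turned: the 5 genes lay at log2 −0.16 to −0.51 and cnc at −1.90, where the median gene lay at −1.87. Higher and lower here refer to the rescaled libraries.

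**Figure D2:**
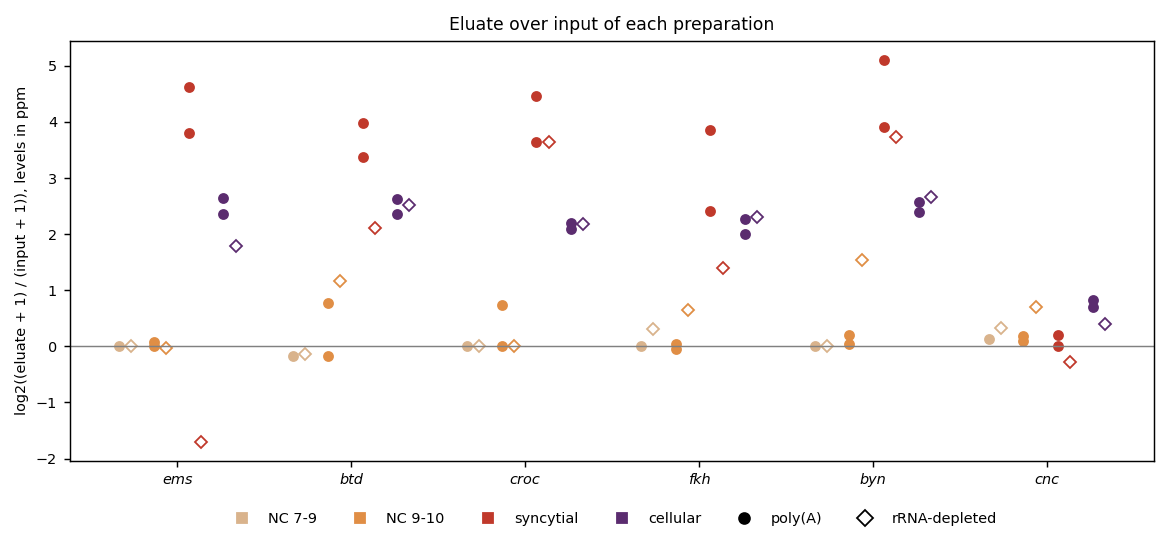
Log2 ratio of eluate to input within each preparation, with 1 ppm added to both (y axis), for the 6 genes (x axis) at 4 stages from left to right; filled circles are poly(A) and open diamonds rRNA-depleted preparations. The 5 genes other than cnc have poly(A) ratios of 2.40 to 5.11 at syncytial and 2.01 to 2.65 at cellular blastoderm, while ems in rRNA-depleted RNA lies at −1.70 at syncytial blastoderm; on the values as deposited the ratios at cellular blastoderm fall below 0.

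The step in the ratio between the blastoderm stages was tested as the difference of 2 differences. For byn the log2 ratio of eluate to input was 2.40 and 2.58 in the cellular preparations, against 5.11 and 3.91 in the syncytial ones, with no overlap. The difference was −2.02 ± 0.54 (limma adjusted p = 0.0277), and byn was the 1 gene of the 6 that passed, where 4.33% of all genes tested fell. The call was lost in 5 of the 8 fits that leave out 1 library (−1.46 without the first syncytial input, limma adjusted p = 0.105) and with the libraries scaled by their total alone (−1.75, 0.0505), a pseudocount of 0.1 (−2.42, 0.0816), the values as deposited (−1.24, 0.405) or only the 4 groups compared in the fit (−2.02, 0.0789). The values of ems (−1.71 ± 0.61, limma adjusted p = 0.0739) and croc (−1.91 ± 0.74, 0.0954) did not pass, and passed with the preparation as a block (0.0409 and 0.0443) or the 5-EU dose as a block (0.0391 and 0.0151). Neither btd (−1.18 ± 0.94, 0.412) nor fkh (−0.99 ± 1.05, 0.552) passed. Both syncytial inputs of fkh (0.985 and 0.390 ppm) lie under the 1 ppm added, which understates the fall of its ratio. For cnc the value was 0.66 ± 0.56 (0.442, and 0.0225 with the block), of the opposite sign. The median of all genes tested was 0.17.

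In labelled RNA the 5 genes rose steeply between NC 9-10 and syncytial blastoderm. The mean eluate level of ems was 109 ± 28.4 ppm at syncytial blastoderm (SD, n = 2), against 0.0291 ± 0.0412 ppm at NC 9-10. That of btd was 122 ± 87.1 ppm, against 1.27 ± 1.77 ppm. For byn the means were 85.5 ± 3.97 and 0.0869 ± 0.0845 ppm, for croc 66.6 ± 6.99 and 0.332 ± 0.469 ppm, and for fkh 17.1 ± 15.2 and 0.0253 ± 0.0357 ppm, syncytial blastoderm first. No library of the earlier stage reached one of the later stage in any of the 5. The log2 differences were 6.72 ± 0.43 for ems, 6.32 ± 0.38 for byn, 5.81 ± 0.66 for btd, 5.71 ± 0.52 for croc and 3.83 ± 0.75 for fkh, all called by limma. They depend on the 1 ppm added, since the earlier levels rest on few reads. Between stages of bulk RNA, more cells of a type and more RNA per cell cannot be told apart. In this comparison 13.5% of all genes tested were called higher and 7.28% lower. The level of cnc was 149 ± 48.4 ppm at syncytial blastoderm, against 167 ± 36.2 ppm at NC 9-10 (log2 −0.18, limma adjusted p = 0.808).

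Between the blastoderm stages the gut genes had the largest log2 differences of the 6 in poly(A) eluates. The rises were not tested against each other. For byn the eluates were at 374 and 343 ppm at cellular blastoderm, against 88.3 and 82.7 ppm at syncytial blastoderm, a log2 difference of 2.05 ± 0.38 (limma adjusted p = 0.000984). For fkh they were at 271 and 67.2 ppm, against 27.9 and 6.36 ppm, a log2 difference of 3.22 ± 0.75 (0.00401). Neither gene overlapped between the stages. The genes ems (1.35 ± 0.43, limma adjusted p = 0.0231) and croc (1.42 ± 0.52, 0.0437) were called too, so 4 of the 6 genes rose, where 31.7% of all genes tested did and their median was 0.42. The call of ems was lost without the second syncytial eluate (limma adjusted p = 0.116) or the first cellular one (0.140), that of croc without any 1 of the 4 eluates (0.0922 to 0.143), and that of fkh without the first cellular eluate (0.0517). For btd the eluates of the stages overlapped, with 276 and 164 ppm at cellular against 184 and 60.5 ppm at syncytial blastoderm (log2 1.01 ± 0.66, limma adjusted p = 0.241). The level of btd was higher at cellular blastoderm within each dose, and with the dose as a block it still did not pass (limma adjusted p = 0.151). The eluates of cnc did not overlap, and their log2 difference of −0.77 ± 0.39 did not pass (0.131), and passed with the dose as a block (0.0152). In the rRNA-depleted eluates, with 1 library per stage, the cellular level of ems was 17.7 times the syncytial one, which held 2 reads. The same ratio was 6.12 for fkh, 2.87 for byn, 2.64 for croc and 1.67 for btd.

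Total RNA of 4 of the genes was also called higher at syncytial blastoderm than at NC 9-10. At syncytial blastoderm the inputs of ems (4.26 and 5.44 ppm), croc (2.28 and 3.99) and byn (1.59 and 4.58) were above the inputs at NC 9-10, in which these 3 genes were listed at 0. For btd the inputs had 10.8 and 4.94 ppm at syncytial blastoderm, against 1.07 and 0.149 ppm at NC 9-10. Those 4 genes passed the test, with log2 differences of 2.54 ± 0.43 for ems (limma adjusted p = 0.00437), 2.44 ± 0.66 for btd (0.045), 2.02 ± 0.52 for croc (0.0368) and 1.93 ± 0.38 for byn (0.00921). Of all genes tested, 1.77% were called higher and 5.79% lower. Leaving out 1 library left at most 2 of the 4 calls standing, with limma adjusted p up to 0.353 for btd and 0.257 for croc. The gene fkh was at 0.985 and 0.390 ppm in the syncytial inputs, against 0.0304 and 0.0203 ppm at NC 9-10 (log2 0.70 ± 0.75, 0.773). These inputs did not overlap, with 34 and 15 estimated reads against 1 and 1. All lie under the 1 ppm added, which shrinks the difference.

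At cellular blastoderm the total RNA of the 5 genes rose further in the poly(A) set, and that of cnc fell. The inputs of fkh had 55.0 and 15.9 ppm at cellular blastoderm, against 0.985 and 0.390 ppm at syncytial blastoderm, a log2 difference of 4.21 ± 0.75 (limma adjusted p = 0.00133). Those of byn had 69.9 and 56.5 ppm, against 1.59 and 4.58 ppm, a log2 difference of 4.07 ± 0.38 (2.74e-05). The later inputs were above the earlier ones in both gut genes. The differences were 3.33 ± 0.52 for croc (0.000622), 3.06 ± 0.43 for ems (0.000295) and 2.18 ± 0.66 for btd (0.0266, lost without the second syncytial input, 0.170, or the first cellular input, 0.173). So 5 of the 6 rose, where 16.8% of all genes tested did. In the rRNA-depleted inputs, with 1 library per stage, ems did not rise (5.55 ppm at syncytial and 4.50 ppm at cellular blastoderm). There croc, fkh and byn rose, and btd rose least (7.29 and 9.35 ppm). The poly(A) inputs of cnc had 57.5 and 42.3 ppm at cellular blastoderm, against 181 and 99.9 ppm at syncytial blastoderm, without overlap. The log2 difference was −1.43 ± 0.39 (limma adjusted p = 0.0167), where 13.9% of all genes tested fell. It was −1.004 without the first syncytial input (0.160) and −1.21 without the second cellular input (0.105), and with only the groups compared in the fit it was −1.43 and no longer called (0.0695). The summed level of the 6 maternal markers in the inputs moved with it, at 1404 to 1478 ppm at cellular against 3093 to 3403 ppm at syncytial blastoderm, and the part of this in the change of cnc was not tested.

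**Figure D3:**
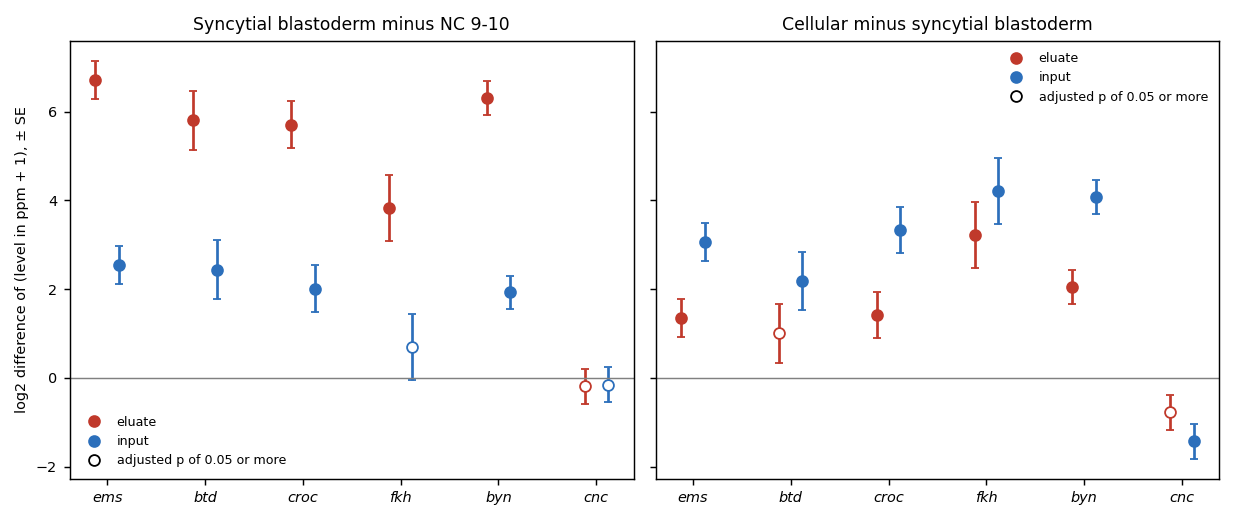
Log2 differences between stages of the level in ppm plus 1 (y axis, points with SE bars from limma, n = 2 against 2) for the 6 genes, with eluate left and input right for each gene. The left panel is syncytial blastoderm minus NC 9-10 and the right panel cellular minus syncytial blastoderm; open circles have an adjusted p of 0.05 or more. In eluates the 5 genes other than cnc have steps of 3.83 to 6.72 on the left and 1.01 to 3.22 on the right, and in inputs cnc falls by 1.43 on the right.

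These comparisons share their libraries, so their values for the 6 genes are not independent of each other. How much of the cellular blastoderm level was already there one stage earlier differed between the genes. In poly(A) eluates the mean syncytial level, as a share of the mean cellular level, was 55.4% for btd, 39.0% for ems, 37.1% for croc, 23.9% for byn and 10.1% for fkh. In poly(A) inputs the shares were 20.0% for btd, 9.76% for ems, 7.88% for croc, 4.88% for byn and 1.94% for fkh. Mean eluates and mean inputs of the poly(A) set, which come from the same preparations, gave the genes in the same order. In the eluates of the second preparation alone, the share of btd (60.5 of 164 ppm) lay below that of ems (89.1 of 229 ppm). The first eluates and the inputs of each preparation kept the order. Other libraries gave other orders: in poly(A) flow-throughs byn was last (3.55%, beside 4.44% for fkh), in the rRNA-depleted eluates ems was last (5.66%, beside 16.3% for fkh), and in the rRNA-depleted inputs ems was at 123% and croc last at 10.8%. The poly(A) shares are ratios of means of 2 libraries, and the order was not tested. For cnc the share was 175% in poly(A) eluates and 282% in poly(A) inputs.

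The order of levels over stage and fraction was alike in ems, croc and byn. The highest were the eluates of cellular blastoderm, then the eluates of syncytial blastoderm, the inputs and the flow-throughs of cellular blastoderm, the inputs of syncytial blastoderm and the flow-throughs of that stage. No neighbours in this order overlapped in these 3 genes. For btd the eluates of the blastoderm stages overlapped, and the other neighbours down to the syncytial flow-throughs did not. For fkh the mean order differed, with cellular inputs (35.5 ± 27.6 ppm) above syncytial eluates (17.1 ± 15.2 ppm), but these overlapped, as did the syncytial eluates with the cellular flow-throughs (10.7 ± 4.44 ppm). For cnc the groups up to syncytial blastoderm, with means of 127 to 176 ppm, overlapped one another in level where they had 2 libraries. Its cellular eluates (84.9 ± 13.6 ppm) lay above its cellular inputs (49.9 ± 10.8 ppm), and those overlapped with its cellular flow-throughs (44.0 ± 13.0 ppm).

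The flow-through held less of the 5 genes than the input in every blastoderm preparation of the poly(A) set. At cellular blastoderm the log2 ratio of flow-through to input was −2.09 and −1.02 for byn, −1.79 and −0.93 for ems, −1.89 and −0.82 for btd, −1.93 and −0.58 for croc, and −1.91 and −0.98 for fkh, first and second preparation. At this stage the first preparation, with 250 mM 5-EU, had the lower ratio in all 5, while cnc was near its input at −0.11 and −0.27. At syncytial blastoderm it had the lower ratio in ems (−2.40 and −1.30), btd (−1.56 and −1.02) and croc (−1.71 and −0.71), and the higher one in byn (−0.88 and −1.40) and fkh (−0.17 and −0.23). There the first flow-through held an estimated 0 reads of ems and croc, 8 of btd, 3 of fkh and 1 of byn. That library had 1.93 M estimated reads, the fewest of all. No test of flow-through against input was run, and the part of dose in these ratios cannot be told apart from the preparation.

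At the blastoderm stages fkh was higher in the first preparation in each pair of eluates and inputs. Its level in the first preparation was 4.38 times that in the second in syncytial eluates, 4.02 times in cellular eluates, 2.52 times in syncytial inputs and 3.45 times in cellular inputs. Of the 8744 genes tested, 96 others had a log2 difference of level plus 1 at or above that of fkh in each of the 4 pairs. The head gene btd was also higher in the first preparation in all 4 pairs, by 3.04, 1.68, 2.18 and 2.06 times in the same order. So was cnc, by 1.60, 1.26, 1.81 and 1.36 times. The same count of other genes was 312 for btd and 610 for cnc. For croc and byn the blastoderm eluates of the preparations were within 1.16 times of each other, and the syncytial inputs were lower in the first (0.570 and 0.347 times the second). The marker list of older embryo tissues also differed between the cellular preparations. Its 7 genes summed to 114 ppm in the first and 25.1 ppm in the second eluate, and to 22.6 and 5.51 ppm in the inputs. Nearly all of this was the neuronal gene elav, at 113 and 23.7 ppm in the eluates and 20.6 and 4.90 ppm in the inputs. The part of this in the values of fkh, btd and cnc was not tested.

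In rRNA-depleted RNA, which was scaled apart from the poly(A) set and had 1 preparation per stage, croc, byn, btd and fkh were again above input in the blastoderm eluates. The eluates of byn had 0, 1.92, 45.6 and 131 ppm at NC 7-9, NC 9-10, syncytial and cellular blastoderm, against 0, 0, 2.52 and 19.9 ppm in the inputs. Those of croc had 0, 0, 47.9 and 127 ppm, against 0, 0, 2.93 and 27.0 ppm. Both genes were higher in the eluate at both blastoderm stages. For btd the eluates had 0, 1.45, 34.8 and 58.2 ppm and the inputs 0.1, 0.0881, 7.29 and 9.35 ppm. For fkh the eluates had 0.287, 0.594, 3.53 and 21.6 ppm and the inputs 0.0342, 0.0151, 0.716 and 3.57 ppm. The level of cnc was 160, 181, 118 and 61.1 ppm in the eluates, against 127, 111, 143 and 45.8 ppm in the inputs, and was the only one of the 6 to stand above 100 ppm before the blastoderm. The NC 9-10 eluate held 6 estimated reads of byn, 5 of btd and 3 of fkh.

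The head gene ems stood apart in this set. Its eluates had 0, 0, 1.02 and 18.0 ppm over the 4 stages, against 0, 0.0261, 5.55 and 4.50 ppm in the inputs. At syncytial blastoderm the eluate held 2 estimated reads of ems and the input 148, a log2 ratio of −1.70, where the poly(A) preparations had 4.63 and 3.80. Of the 978 genes called higher in poly(A) eluates at that stage, 855 others were tested in this set, and 10 of them (1.17%) lay at or below ems. Their median was 2.77, and 118 (13.8%) were below 0. At cellular blastoderm ems was at 1.79, where 107 of the 855 genes (12.5%) were at or below it and the median was 2.40. The ratio at syncytial blastoderm rests on 2 reads in 1 eluate library. The inputs of ems held 148 estimated reads at syncytial and 174 at cellular blastoderm.

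Over all 4 stages limma called none of the 6 genes in the rRNA-depleted set. The log2 differences of eluate and input were 1.98 ± 0.79 for byn (adjusted p = 0.364), 1.46 for croc, 1.42 for btd, 1.17 for fkh, 0.29 for cnc and 0.01 for ems. The share called over all 8131 genes tested was 0.0%, with 1077 at an unadjusted p below 0.05. In this fit the differences between stages count as spread. On values as deposited all 6 signs turned, where the median gene lay at −5.21.

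**Figure D4:**
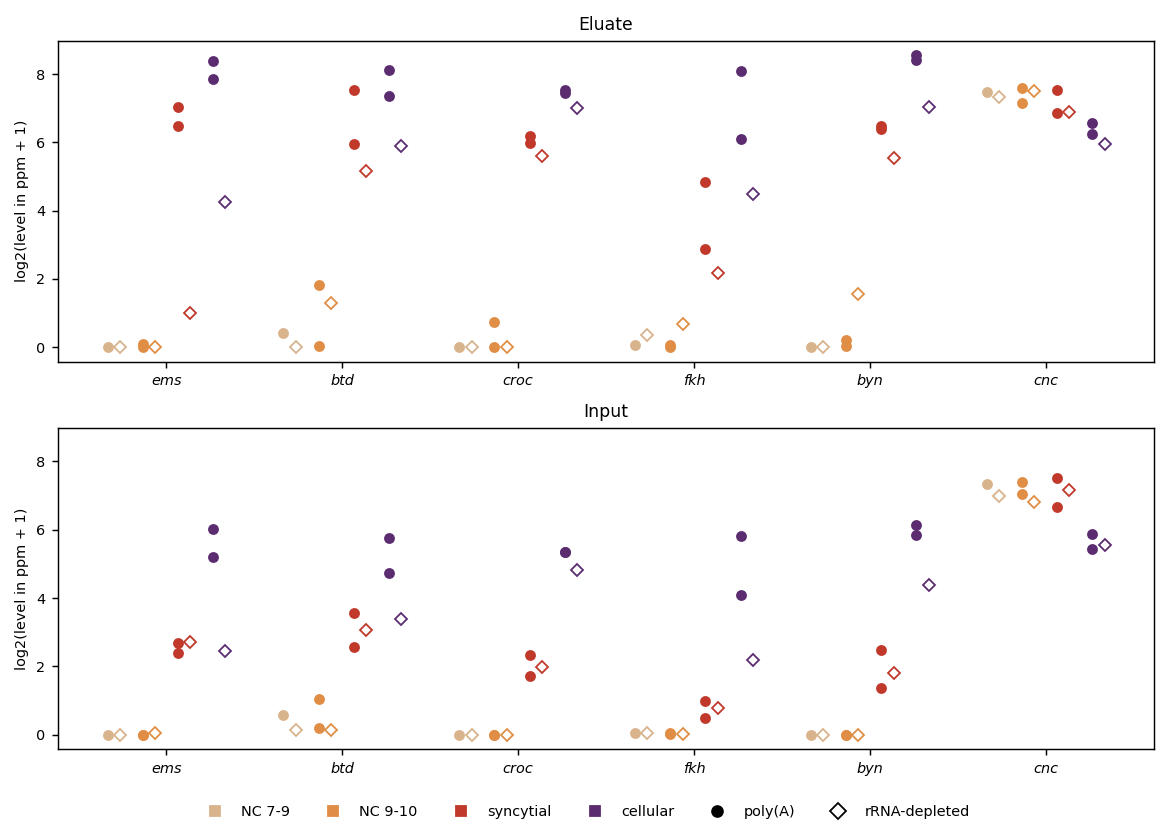
Levels of the 6 genes (x axis) as log2 of the level in ppm plus 1 (y axis) in eluates (upper panel) and inputs (lower panel), at 4 stages from left to right for each gene. Filled circles are poly(A) and open diamonds rRNA-depleted libraries, and each set was scaled on its own. In the syncytial eluates ems is at 129 and 89.1 ppm in the poly(A) set and at 1.02 ppm in the rRNA-depleted library.

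Other genes of the same axes are read here against the share of all genes tested that was called, which was 11.2% higher at syncytial blastoderm and 39.0% higher and 17.3% lower at cellular blastoderm. Of 15 tested genes of anterior patterning, 10 were higher in syncytial eluates than in inputs and none lower, with a median log2 difference of 3.54. The largest were the gap genes kni (4.50 ± 0.62, limma adjusted p = 0.000414) and Kr (4.21 ± 0.43, 7.74e-05) and the Sox gene D (4.35 ± 0.66, 0.0008). At cellular blastoderm 14 were higher, with a median of 2.23, the largest being kni (2.54 ± 0.62, 0.00467), the Hox gene Dfd (2.46 ± 0.56, 0.00307) and Kr (2.46 ± 0.43, 0.000679). The maternal anterior determinant bcd, named after its value was seen, was the 1 that was lower (−1.30 ± 0.21, 0.000389). Of 12 tested genes of the termini and the gut, 5 were higher at syncytial blastoderm and none lower, with a median of 1.93. The terminal gap genes tll (4.49 ± 1.15, 0.023) and hkb (4.37 ± 0.81, 0.003), which act above fkh and byn, were the largest, followed by the signal wg (3.52 ± 0.36, 7.65e-05). At cellular blastoderm 7 of the 12 were higher and none lower, with a median of 2.06. The largest were the zinc finger gene bowl (2.50 ± 0.31, 0.000124), wg (2.28 ± 0.36, 0.000376) and hkb (2.23 ± 0.81, 0.034), while tll was at 2.44 ± 1.15 and did not pass (0.0904).

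Of 11 tested genes of the Torso pathway and other maternal inputs, 1 was higher at syncytial blastoderm, tsl, which helps to activate Torso at the egg poles (1.21 ± 0.30, limma adjusted p = 0.0174), and the median was 0.20. At cellular blastoderm 3 were higher, among them the kinase gene Dsor1 (1.91 ± 0.22, 9.74e-05) and the ligand gene trk (1.58 ± 0.53, 0.0235), and 3 lower, among them the receptor gene tor (−1.71 ± 0.34, 0.00147), where 39.0% of all genes tested were higher and 17.3% lower. Of 19 tested relatives and partners, 9 were higher at syncytial blastoderm (median 0.99) and 13 at cellular blastoderm (2.03), with none lower at either. They included the forkhead genes fd19B (4.27 ± 1.04, 0.0174) and slp1 (4.19 ± 0.90, 0.00778) and the T-box gene Doc1 (3.90 ± 0.48, 0.000208) at syncytial blastoderm. The largest at cellular blastoderm were fd19B (2.79 ± 1.04, 0.0383), the T-box gene Doc2 (2.40 ± 0.37, 0.000362) and fd102C (2.40 ± 0.47, 0.00126). The median of all genes tested was 0.08 at syncytial and 0.57 at cellular blastoderm.

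The partners of Cnc were named after their values were seen. The repressor gene Keap1 averaged 126 ± 15.1 ppm in syncytial eluates and 18.2 ± 0.612 ppm in the inputs, a log2 difference of 2.72 ± 0.29 (limma adjusted p = 8.37e-05), while maf-S averaged 92.0 ± 3.19 and 176 ± 46.5 ppm (−0.90 ± 0.47, 0.317). At cellular blastoderm Keap1 averaged 497 ± 66.9 ppm in eluates and 95.6 ± 9.43 ppm in inputs (2.36 ± 0.29, 0.000113). The homeobox gene E5, the nearest coding gene to ems at 26937 bp, averaged 3.44 ± 0.809 ppm in cellular eluates and 0.552 ± 0.531 ppm in inputs (1.55 ± 0.24, 0.000361), against 280 ± 72.4 and 49.7 ± 20.0 ppm for ems.

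Across the 21 poly(A) libraries the log2 levels of ems, btd, croc, fkh and byn had Pearson correlations of 0.933 to 0.995 with one another, and cnc of −0.441 to −0.597 with them. These describe libraries that fall into stages and fractions and share preparations. Of the 7385 genes compared, those most like each gene were Doc1, cv-2 and slp2 for ems (0.997 to 0.995), dpp, phyl and oc for btd (0.993 to 0.989), and Cyp310a1, hll and Mip for croc (each 0.998). For fkh they were SoxN (0.997), ImpE2 (0.995) and DOR (0.994), for byn cv-2 (0.998), Ance (0.997) and Lapsyn (0.996), and for cnc phol (0.983), cal1 (0.978) and REPTOR (0.974).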

How the data were processed

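The authors deposited 2 tables named RPKM, of 21 poly(A) and 12 rRNA-depleted libraries, with 16407 genes each. The submitters' processing notes name STAR, HTSeq and dm6, with no version. The factor of each library, the filters, the gene models and the strand setting were not given in the sources used here. The kit was a stranded one, per the labels' protocols. The deposited RPKM values have a minimum of exactly 1. Less that 1, low values are whole multiples of a step set by the library and the gene's length. Estimated reads come from these steps and the exonic lengths of BDGP6.54 (release 115; 99.5% of genes had a length); the 46 values of the 6 genes between 0 and 8 reads were all whole within 0.02. As these are estimates, no count test or counting interval is given.

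After subtraction of 1 the libraries were brought to a total of 1000000 (ppm) and divided by median-of-ratios size factors. Genes at 1 ppm or more in at least 2 libraries were tested (8744 poly(A), 8131 rRNA-depleted) as log2(ppm + 1), which understates changes of low genes, with limma 3.58.1 in R 4.3.3 (empirical Bayes with trend, Benjamini-Hochberg over all genes tested, threshold 0.05). A single poly(A) fit held the 21 libraries, with 1 mean for each stage-by-fraction group, and the rRNA-depleted fit had stage and fraction terms. The code was tested on simulated data.

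The 6 genes, the lists and the tests were chosen with earlier results of these data known. Besides the 6 genes, the text names the 3 largest passing genes of each list and the 3 genes most alike (Pearson, at 5 ppm or more in at least 2 libraries), with exceptions stated. Symbols Gsc, Raf and zld stand for gsc, phl and vfl. Eluate, flow-through and input with the same stage, dose and number in the titles were taken as 1 preparation. Their deviations from the stage means correlated across genes at 0.511 to 0.929 in 9 of 9 pairs. At the blastoderm stages the preparations also differ in dose, so the correlations there do not test the pairing by title. The main poly(A) fit did not pair the fractions. Alternatives were other scalings, a pseudocount of 0.1, no filter, only the groups compared, the preparation or the 5-EU dose as a block and leaving out each library. Promoter and protein sequences were not used here.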

Additional observations from a re-analysis of the deposited data

Results flagged for a closer look

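In the test of the eluate to input ratio between cellular and syncytial blastoderm, byn was the 1 gene of the 6 that passed. Its log2 ratio differed by −2.02 (SE 0.54, limma adjusted p = 0.0277, n = 2 preparations at each stage). The values of ems (−1.71) and croc (−1.91) were close to it and did not pass. The fall of fkh (−0.99) is understated, since both its syncytial inputs lie under the 1 ppm added. In this test the median was −2.03 for the 6 early zygotic markers, −1.09 for anterior patterning, 0.21 for the termini and the gut, and 0.17 for all genes tested. The ratios of byn were 2.40 and 2.58 at cellular blastoderm, against 5.11 and 3.91 at syncytial blastoderm. The syncytial inputs behind the ratio held 34 and 109 estimated reads. The call was lost under settings given in the report. No group had enough libraries to look for a library far from the others.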

How the results depend on the processing

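Of the 552 results of the 6 genes under an alternative, 432 kept their direction and their side of the threshold. This count includes results that were not called in the main fit and stayed so. Under alternatives other than leaving out libraries, 43 results lost their call, 7 gained a call and 21 changed sign.

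With values as deposited the genes called in eluate against input numbered 6784 at NC 9-10 and 6410 at syncytial blastoderm. They numbered 678 in eluates from NC 9-10 to syncytial blastoderm, 2319 in eluates between the blastoderm stages and 6934 in rRNA-depleted RNA. The 6 genes called higher then numbered 0 and 0 in eluate against input at syncytial and cellular blastoderm, 2 and 2 in eluates and inputs between the blastoderm stages, and 3 in inputs from NC 9-10 to syncytial blastoderm. Signs turned at NC 9-10 for btd (−2.82) and cnc (−4.30) and at syncytial blastoderm for btd (−0.060) and cnc (−3.80). At cellular blastoderm they turned for ems (−0.16), btd (−0.16), croc (−0.51), fkh (−0.50), byn (−0.18) and cnc (−1.90), and in the rRNA-depleted set for ems (−2.39), btd (−2.12), croc (−0.79), fkh (−1.35), byn (−0.38) and cnc (−5.10). The deposited values hold each library's unknown scale.

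With libraries scaled to their total alone, 10 genes were called at NC 9-10, 13 in the rRNA-depleted set, and of the 6 genes 2 rose in eluates and 4 in inputs between the blastoderm stages. The sign turned for fkh at NC 9-10 (0.0034), cnc at syncytial blastoderm (−0.33) and ems (−0.20) and cnc (−0.23) in the rRNA-depleted set; none of these was called. With a pseudocount of 0.1, 5 genes were called at NC 9-10 and 23 in the rRNA-depleted set, where ems turned to −0.17, and of the 6 genes 4 and 2 were called at syncytial and cellular blastoderm, 2 and 4 rose in eluates and inputs between the blastoderm stages and 3 in inputs from NC 9-10 to syncytial blastoderm. Without the filter 6 genes were called at NC 9-10, and of the 6 genes 2 rose in inputs from NC 9-10 to syncytial blastoderm and 3 in eluates between the blastoderm stages.

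With only the groups compared in the fit, 4 genes were called at NC 9-10, 0 at syncytial blastoderm (0 of the 6 genes), 341 in eluates from NC 9-10 to syncytial blastoderm (3 of the 6), 1259 in eluates between the blastoderm stages (2 of the 6), 127 in inputs from NC 9-10 to syncytial blastoderm (1 of the 6), and 0 in the difference between stages. Of the 6 genes, 4 were then higher at cellular blastoderm, and 4 rose and 0 fell in inputs between the blastoderm stages. These fits hold fewer libraries. With the preparation as a replicate block 28 genes were called at NC 9-10, 1680 at syncytial blastoderm and 3441 in the difference between stages, in which 1 of the 6 genes, cnc, was then higher. Beyond those given in the report the block changed no other call of the 6 genes. Between stages the preparation could not be a block, since each has 1 stage. With the 5-EU dose as a replicate block between the blastoderm stages, chosen after seeing the data, 2501 genes were called in the difference between stages; the calls of the 6 genes that it changed are given in the report. A fit of the rRNA-depleted set with only the 2 blastoderm preparations, chosen after seeing the data, called 0 genes, with byn at 3.19 and ems at 0.04.

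Leaving out 1 library gave 0 to 36 genes called at NC 9-10, 641 to 1306 at syncytial and 3567 to 4601 at cellular blastoderm, 1213 to 1824 and 3105 to 3868 in the eluate steps, 111 to 373 and 1511 to 1979 in the input steps, 325 to 1959 in the difference and 0 to 51 in the rRNA-depleted set. Of the 6 genes, 4 to 5 were then called higher at syncytial and 3 to 5 at cellular blastoderm, 5 and 1 to 3 in the eluate steps, and 0 to 2 and 4 to 5 in the input steps. Where an arm kept 1 library, it is assumed to vary like the other groups. Signs turned among values that were not called: at NC 9-10 for btd (−0.59 to 1.19), fkh (−0.036 to 0.035) and cnc (−0.085 to 0.36), at syncytial blastoderm for cnc (−0.32 to 0.53), in its eluate step (−0.52 to 0.15) and input step (−0.58 to 0.27) from NC 9-10, for fkh in the difference (−1.99 to 0.0070) and for ems in the rRNA-depleted set (−0.58 to 0.58).

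Depth limits NC 7-9 and NC 9-10, where 5 of the 6 genes had few or no reads, and groups of 2 limit every test.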
